A study of Homo sapiens with 192 samples.

Results

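The zinc finger genes of chromosome 19 were taken as the protein-coding genes on this chromosome of GRCh38 (GENCODE 29) whose symbol is ZNF followed by a number alone. This rule gave 240 genes of the 58243 genes counted, and 19788 of the counted genes were protein-coding. It used no expression value. Another 6 ZNF genes of chromosome 19 carry a letter after the number and were not counted as members, and 234 genes with ZNF and a number lie on other chromosomes.

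RNA was sequenced from 4 human lines of colorectal cancer, namely HT29, LS513, HCT116 and LS174T. Every line was cultured under 2D and under 3D conditions, which gives 8 groups of 3 libraries. For the sequenced cells the study states only 2D or 3D growth and names no treatment. It describes spheroids in low attachment plates for its spheroid growth assay. The study describes HT29 and LS513 as microsatellite stable and HCT116 and LS174T as microsatellite instable, and it grew HCT116 in McCoy medium and the other lines in DMEM, so that line and medium cannot be told apart. Each line is a single tumor-derived culture, and the labels do not say whether the libraries of a group came from separate cultures, so p-values measure the spread between these libraries, which may be technical.

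Most zinc finger proteins encoded on chromosome 19 bind DNA through a row of C2H2 zinc fingers and carry a KRAB domain, which recruits the corepressor TRIM28. TRIM28 in turn brings the histone methyltransferase SETDB1 and HP1 proteins, and chromatin at the bound site takes on the repressive mark H3K9me3. Many of these proteins silence retroelements. Their genes arose by tandem duplication and lie in clusters, and loss of expression with promoter methylation has been described for single members in several tumor types.

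Library totals ranged from 18723942 to 34277421 counts. A gene was called silent in a line when each of the 6 libraries of that line, 2D and 3D together, held at most 3 counts, and detected when each held more than 3. Silence therefore means not detectable at this depth, and in these bulk libraries fewer expressing cells and less RNA per cell cannot be told apart. Levels are given as counts or as CPM, the counts divided by the TMM-scaled library total in units of 1e6 counts, as mean ± SD. Of 11 markers of colorectal epithelium, 11 were detected in every library of HT29, LS513 and LS174T, and 8 in 2D and 9 in 3D of HCT116. The 12 markers of leukocytes, fibroblasts and endothelium summed to between 0.449 and 23.6 CPM per library.

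The genes lie in 20 groups along the chromosome when a gap of over 500 kb separates groups, and the 8 groups with 10 or more genes hold 218 of the 240. The largest is the group at the end of the long arm, with 41 genes from ZNF264 to ZNF446 (chr19:57191500-58481230), followed by the group of 39 genes from ZNF175 to ZNF331 (chr19:51571298-53580269) and by the group of 37 genes from ZNF101 to ZNF254 (chr19:19668796-24129961).

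Promoters were looked up because silence of single genes at a CpG promoter is a known feature of this family. The promoter sequences come from RefSeq (GRCh38.p14), run from 250 bases before to 50 after the start of the gene, and were found for 209 of the 240 genes. Of these, 149 had their start within 100 bases of that in GENCODE, and the 7 shown are among them. ZNF461 was silent in HT29 and detected in the other lines, ZNF264 and ZNF845 were silent in LS513, ZNF850 and ZNF841 were silent in HCT116, ZNF582 was at 0 counts in every library, and ZNF274 is the gene with the lowest p for a growth effect that differed between lines. The sequences run 5′ to 3′ on the strand of the gene and the CG dinucleotides are in capitals. They lie on the minus strand at chr19:36666788-36667087 (ZNF461), chr19:36772758-36773057 (ZNF850), chr19:52095716-52096015 (ZNF841) and chr19:56393485-56393784 (ZNF582), and on the plus strand at chr19:57191250-57191549 (ZNF264), chr19:53333499-53333798 (ZNF845) and chr19:58182811-58183110 (ZNF274).
ZNF461: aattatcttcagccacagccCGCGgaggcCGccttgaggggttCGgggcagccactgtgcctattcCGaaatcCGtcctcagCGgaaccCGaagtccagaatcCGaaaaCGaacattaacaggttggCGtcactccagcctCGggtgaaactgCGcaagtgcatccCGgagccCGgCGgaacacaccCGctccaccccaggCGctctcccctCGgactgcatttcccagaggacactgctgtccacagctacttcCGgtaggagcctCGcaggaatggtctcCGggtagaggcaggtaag
ZNF264: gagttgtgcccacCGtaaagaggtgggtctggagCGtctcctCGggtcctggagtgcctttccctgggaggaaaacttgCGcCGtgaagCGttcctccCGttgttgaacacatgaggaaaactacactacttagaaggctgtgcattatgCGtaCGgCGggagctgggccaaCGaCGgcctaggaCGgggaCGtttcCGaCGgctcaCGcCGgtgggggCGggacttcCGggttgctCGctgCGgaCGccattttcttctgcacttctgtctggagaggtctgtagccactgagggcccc
ZNF845: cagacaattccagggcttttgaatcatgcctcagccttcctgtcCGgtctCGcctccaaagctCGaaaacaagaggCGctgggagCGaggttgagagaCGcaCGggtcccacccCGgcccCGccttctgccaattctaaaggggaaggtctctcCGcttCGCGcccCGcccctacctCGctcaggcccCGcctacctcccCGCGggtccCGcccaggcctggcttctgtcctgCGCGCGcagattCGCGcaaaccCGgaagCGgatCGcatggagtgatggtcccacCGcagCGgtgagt
ZNF850: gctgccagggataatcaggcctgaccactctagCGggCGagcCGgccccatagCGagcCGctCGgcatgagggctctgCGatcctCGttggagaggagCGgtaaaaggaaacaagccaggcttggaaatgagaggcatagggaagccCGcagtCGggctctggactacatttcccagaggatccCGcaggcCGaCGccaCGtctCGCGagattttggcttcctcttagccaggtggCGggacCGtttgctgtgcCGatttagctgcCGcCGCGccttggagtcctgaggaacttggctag
ZNF841: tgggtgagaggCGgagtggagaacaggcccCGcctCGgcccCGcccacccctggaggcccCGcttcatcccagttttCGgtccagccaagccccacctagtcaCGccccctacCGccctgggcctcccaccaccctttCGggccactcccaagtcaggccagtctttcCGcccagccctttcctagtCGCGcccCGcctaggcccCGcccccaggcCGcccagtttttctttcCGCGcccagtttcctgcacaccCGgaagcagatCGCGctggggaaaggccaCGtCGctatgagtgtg
ZNF582: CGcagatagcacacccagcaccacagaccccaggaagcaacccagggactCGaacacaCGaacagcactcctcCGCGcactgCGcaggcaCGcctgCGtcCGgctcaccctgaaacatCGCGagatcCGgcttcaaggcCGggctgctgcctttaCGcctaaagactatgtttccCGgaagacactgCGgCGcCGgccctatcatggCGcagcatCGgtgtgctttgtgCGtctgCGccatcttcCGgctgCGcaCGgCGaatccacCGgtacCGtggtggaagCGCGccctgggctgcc
ZNF274: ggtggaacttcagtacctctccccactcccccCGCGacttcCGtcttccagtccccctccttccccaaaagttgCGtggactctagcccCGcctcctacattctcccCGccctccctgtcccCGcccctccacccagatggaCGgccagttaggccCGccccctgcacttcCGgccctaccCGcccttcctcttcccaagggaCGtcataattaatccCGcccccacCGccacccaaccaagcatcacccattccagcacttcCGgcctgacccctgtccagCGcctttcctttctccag

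The CG dinucleotide occurred 22 times in the promoter of ZNF461, 23 times in those of ZNF264 and ZNF850, 28 times in that of ZNF845, 22 times in that of ZNF841, 30 times in that of ZNF582 and 16 times in that of ZNF274. All 209 promoters held the motif, as did 98.1% of the promoters of protein-coding genes of the same length. The median number of CG was 20 for the zinc finger genes and 22 for 15843 protein-coding genes, and the ratio of CG found to CG given by the base composition was 0.765 and 0.763. This ratio was above 0.6 in 78.5% of the zinc finger promoters and in 65.7% of those of protein-coding genes. The median number of CG was 22 for the 119 genes that were silent in no line, 17.5 for the 68 that were silent in 1 to 3 lines and 21 for the 22 that were silent in all 4. The shares with a ratio above 0.6 were 82.4%, 67.6% and 90.9% in the same order. Methylation was not measured in these samples, and the letters of a promoter do not show its state.

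The share of silent zinc finger genes differed between the lines. In HCT116, 84 of the 240 genes (35%) were silent, against a background of 26.3% of all protein-coding genes. In LS513 there were 73 silent genes (30.4%, background 31.6%), in HT29 63 (26.2%, background 28.8%) and in LS174T 33 (13.8%, background 28.6%). LS174T thus had the fewest silent zinc finger genes and HCT116 the most, while the share over all protein-coding genes stayed between 26.3% and 31.6%. Of the 234 ZNF genes on other chromosomes, 16.2% were silent in LS513, 13.7% in HCT116, 9.4% in HT29 and 8.97% in LS174T.

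**Figure D1:**
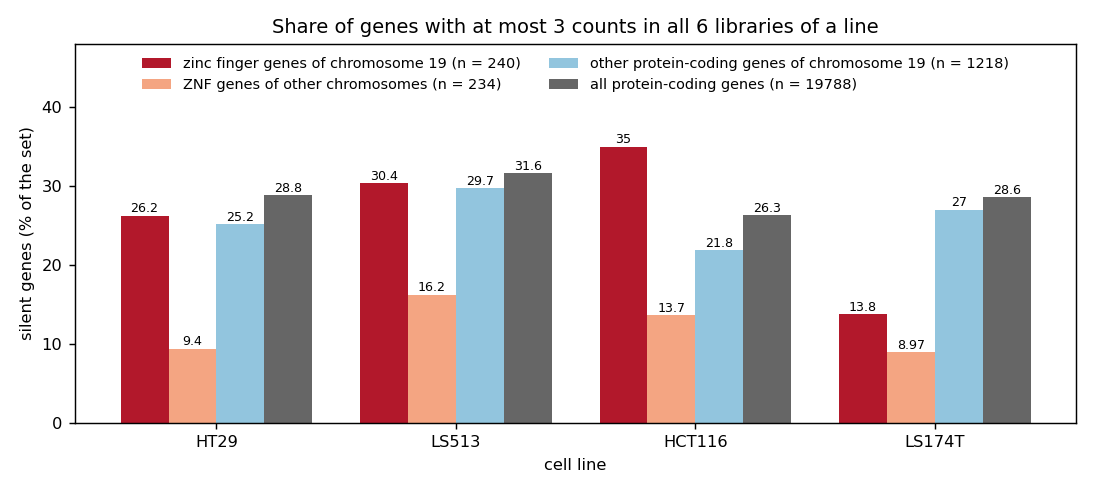
Percent of genes with at most 3 counts in all 6 libraries of a line (bars, y axis from 0) for the 240 zinc finger genes of chromosome 19 and 3 sets for comparison. The zinc finger genes of chromosome 19 run from 13.8% in LS174T to 35% in HCT116, while all protein-coding genes stay between 26.3% and 31.6%.

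Across the lines, 120 genes (50%) were detected in all 24 libraries and 25 were silent in all 4 lines. Another 55 were silent in 1 to 3 lines and detected in each of the others, and 40 lay between these states in at least 1 line. Counted in another way, 71 genes (29.6%) were silent in at least 1 line and detected in at least 1 other, against 12.4% of the protein-coding genes, 12.6% of the other protein-coding genes of chromosome 19 and 13.2% of the ZNF genes on other chromosomes. The 25 genes silent in all 4 lines were 10.4% of the zinc finger genes, and 18.9% of the protein-coding genes were silent in all 4.

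Reads that aligned more than once were removed before counting, and neighbouring zinc finger genes resemble each other. Windows of 75 bases were therefore compared between transcripts. For 218 of the 240 genes at least 80% of the windows occurred in no other gene. The median share of such windows was 97.9% for the 134 genes silent in no line, 99.1% for the 81 silent in 1 to 3 lines and 100% for the 25 silent in all 4. Among the genes named in the following paragraphs, ZNF20 had 46.5% of such windows and also shares 53.3% of its exonic bases with the readthrough gene ZNF625-ZNF20, and ZNF177 had 14.7%. ZNF625, at 0 counts in every library, had 20.6% and shares 83.3% of its exonic bases with other genes, ZNF763 had 53.9%, ZNF284 57.1% and ZNF724 57.3%. The levels of these 6 genes are uncertain. Other named genes also lay under 80%, such as ZNF587 with 67.6%, ZNF98 with 69.0%, ZNF446 with 69.1%, ZNF358 with 74.8% and ZNF428 with 76.3%.

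In HT29, 2 genes were silent and detected in the other 3 lines, 0.833% of the zinc finger genes and 0.318% of the protein-coding genes. With at least 10 counts asked of the other lines, 1 gene met the rule. ZNF607 had between 0 and 2 counts in the 6 HT29 libraries. Its lowest, median and highest library had 314, 404 and 461 counts in LS513, 209, 252.5 and 372 in HCT116 and 388, 518 and 583 in LS174T. The rule that picked ZNF607 sets HT29 apart from the other lines, and the counts give the size of the gap. ZNF461 had 0 or 1 count in HT29, between 8 and 19 in LS513, between 4 and 15 in HCT116 and between 50 and 72 in LS174T, so that this gene was low in every line but LS174T.

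LS513 had 12 such genes, 5% of the zinc finger genes against 0.773% of the protein-coding genes. They were ZNF559, ZNF14, ZNF738, ZNF613, ZNF83, ZNF845, ZNF264, ZNF543, ZNF547, ZNF550, ZNF530 and ZNF329. ZNF264, the first gene of the group at the end of the long arm, had at most 3 counts in LS513, while the lowest, median and highest library had 444, 521 and 621 counts in HT29, 532, 628 and 848 in HCT116 and 139, 345 and 421 in LS174T. ZNF845 had at most 2 counts in LS513 and 20.98 ± 4.36 CPM in HT29, 9.04 ± 1.28 CPM in HCT116 and 14.5 ± 3.24 CPM in LS174T (n = 6 libraries each). ZNF83 had at most 3 counts in LS513 and between 91 and 596 in the libraries of the other lines. The rule that picked these 3 genes sets the LS513 libraries apart from all the others, and the values give the size of the gap.

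ZNF14, ZNF738, ZNF613 and ZNF547 were at 0 counts in every LS513 library. With a floor of 3 counts in a library, ZNF613 was at least 81.8-fold higher in LS174T, at least 35.6-fold higher in HT29 and at least 35.2-fold higher in HCT116 than in LS513. For ZNF14 the bounds were 77.2-fold in LS174T, 54.5-fold in HCT116 and 17.6-fold in HT29. The smallest bound among the 4 genes was that of ZNF738 in HT29, at least 9.91-fold.

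HCT116 had 10 such genes, 4.17% of the zinc finger genes against 0.859% of the protein-coding genes, and 5 when every library of the other lines had to hold at least 10 counts. They were ZNF69, ZNF433, ZNF20, ZNF563, ZNF506, ZNF253, ZNF429, ZNF850, ZNF841 and ZNF836. ZNF841 had at most 1 count in HCT116, and its lowest, median and highest library had 234, 273 and 480 counts in HT29, 210, 308.5 and 394 in LS513 and 163, 327.5 and 458 in LS174T. ZNF506 had at most 1 count in HCT116 and between 2.89 and 4.03 CPM in HT29, 6.71 and 9.63 CPM in LS513 and 13.5 and 19.3 CPM in LS174T. The rule that picked both genes sets HCT116 apart from the other lines. The other lines differed among themselves more for ZNF506.

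Some of the genes silent in HCT116 were also low in HT29. ZNF253 had at most 3 counts in HCT116, between 7 and 14 in HT29, between 89 and 305 in LS513 and between 806 and 1453 in LS174T. ZNF850 had at most 2 counts in HCT116 and between 4 and 11 in HT29, against 355 to 590 in LS513 and 147 to 299 in LS174T. ZNF20 was at 0 counts in HCT116 and at least 69.8-fold higher in LS513, 69.1-fold higher in LS174T and 33.3-fold higher in HT29, counted against the same floor. ZNF433 and ZNF563 were also at 0, and their smallest bounds were those in HT29, at least 6.62-fold and 6.23-fold.

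LS174T had no gene that was silent there and detected in the other 3 lines, against 0.485% of the protein-coding genes. It had 15 genes that were detected in LS174T and silent in HT29, LS513 and HCT116, 0.829% of the protein-coding genes being so. These were ZNF491, ZNF682, ZNF626, ZNF43, ZNF257, ZNF676, ZNF98, ZNF730, ZNF681, ZNF569, ZNF570, ZNF610, ZNF880, ZNF665 and ZNF606. ZNF43 had its lowest, median and highest LS174T library at 500, 890.5 and 1029 counts and at most 3 counts in any library of the other lines. ZNF257 lay at 422, 693.5 and 848 counts in LS174T and at most at 2 elsewhere, and ZNF681 at 182, 425 and 483 counts and at most at 1. The level of ZNF491 was much lower, with a median of 6.5 counts and at most 11 in a library.

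Among the other patterns, ZNF583 and ZNF71 were detected in LS513 alone (0.238% of the protein-coding genes) and ZNF556 in HT29 alone (0.394%). ZNF71 had its lowest, median and highest LS513 library at 144, 178.5 and 237 counts and at most 1 count in any other library. No zinc finger gene was detected in HCT116 and silent in the other 3 lines, against 1.7% of the protein-coding genes. ZNF304 came closest, with 353 to 487 counts in HCT116, 0 in LS513, at most 1 in LS174T and at most 4 in HT29. HT29 and HCT116 shared 9 genes that were silent in both and detected in the other lines: ZNF878, ZNF66, ZNF790, ZNF345, ZNF420, ZNF540, ZNF571, ZNF404 and ZNF615. ZNF649 and ZNF134 were silent in HT29 and LS513, ZNF331 in LS513 and HCT116, and ZNF284 in HCT116 and LS174T.

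**Figure D2:**
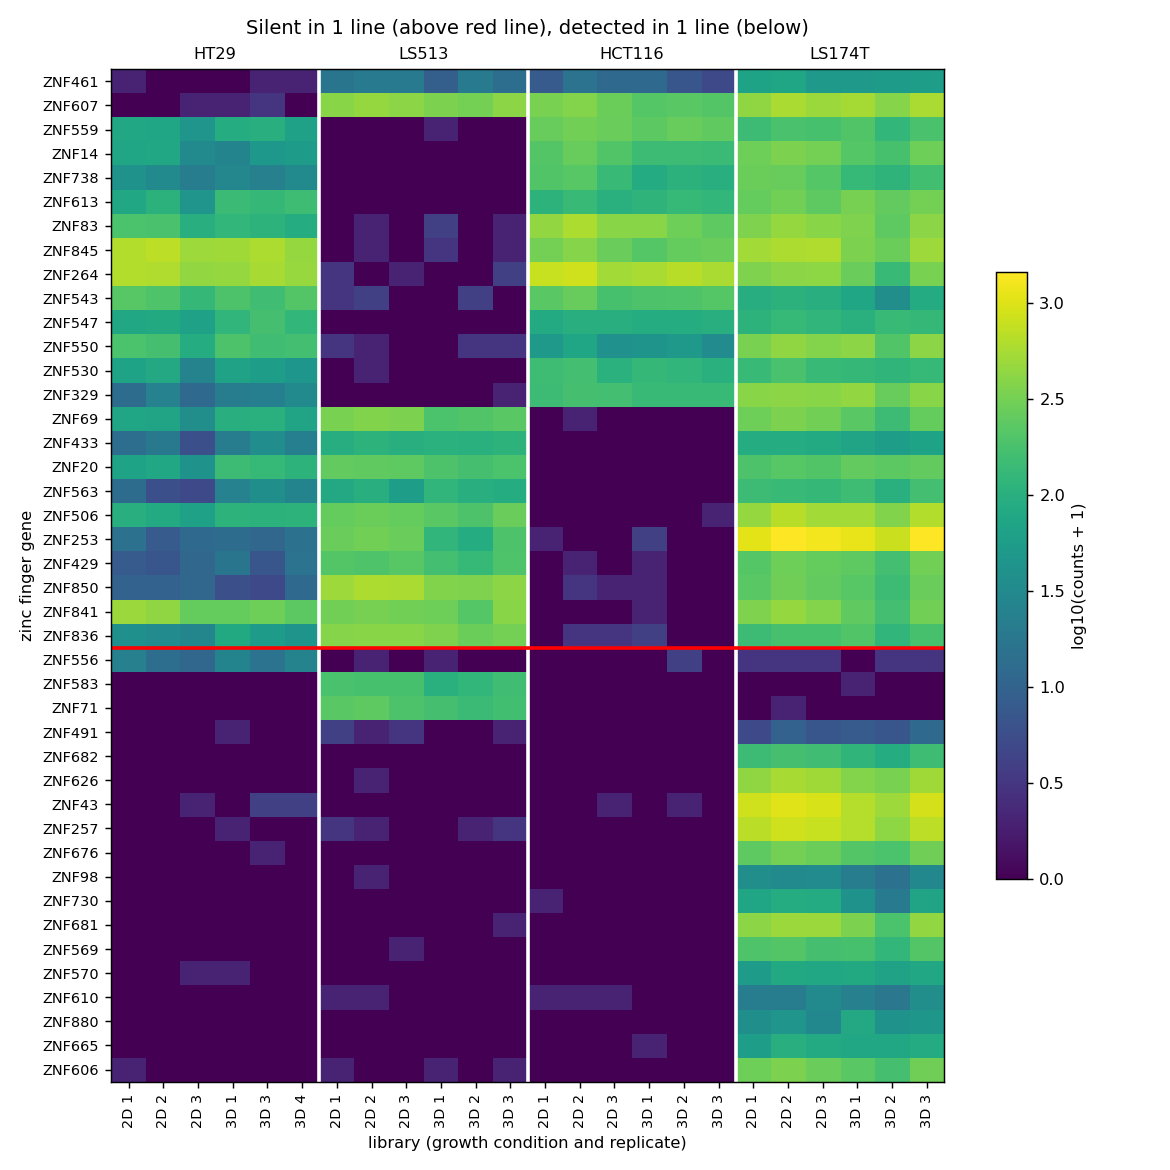
Counts per library (colour, log10 of counts + 1) of the 24 zinc finger genes that were silent in 1 line and detected in the other 3 (above the red line) and of the 18 that were detected in 1 line and silent in the other 3 (below it), with the 24 libraries as columns. The dark blocks span both growth conditions of a line, which the definition of silent requires. There are 2 genes dark in HT29, 12 in LS513 and 10 in HCT116, and 15 genes bright in LS174T alone.

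In HT29, LS513 and HCT116 most silent genes lay next to another silent one. In HCT116, 72 of the 84 silent genes (85.7%) had a silent neighbour within their group, and the same held for 51 of 63 (81%) in HT29, 54 of 73 (74%) in LS513 and 16 of 33 (48.5%) in LS174T. Of the zinc finger genes that were not silent, 32.1% had a silent neighbour in HCT116, 34.1% in LS513, 26% in HT29 and 18.4% in LS174T. Such neighbours were also common among the other protein-coding genes of chromosome 19, where 67.3% of the silent genes in HCT116, 70.4% in LS513, 66.4% in HT29 and 71.7% in LS174T lay next to a silent one. The longest run was the same in HT29, LS513 and HCT116. It held 11 genes in order from ZNF43 to ZNF730 over 1.34 Mb (chr19:21804949-23147219), with no other protein-coding gene inside. In LS174T, ZNF43, ZNF257, ZNF676, ZNF98 and ZNF730 of this stretch were detected, ZNF99, ZNF723 and ZNF728 were silent, and ZNF208, ZNF729 and ZNF492 had libraries on both sides of the limit.

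A run of 7 genes from ZNF582 to ZNF835 over 0.296 Mb (chr19:56375846-56671783) was silent in HT29, HCT116 and LS174T. The other 2 protein-coding genes inside this run, ZFP28 and SMIM17, had at most 1 count in each of these libraries. In LS513 the run was broken by ZNF583 and ZNF71, while ZNF582, ZNF667, ZNF471, ZNF470 and ZNF835 were silent there as well. HCT116 held 2 runs of 6 genes in the group from ZNF565 to ZNF573, from ZNF850 to ZNF420 and from ZNF569 to ZNF781, and a run of 5 from ZNF433 to ZNF625, of which ZNF20 and ZNF625 have few windows of their own. LS513 held a run of 5 from ZNF415 to ZNF845.

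By group, the 37 genes from ZNF101 to ZNF254 held 22 silent genes in HCT116, 20 in LS513, 16 in HT29 and 4 in LS174T. Of the 25 genes from ZNF653 to ZNF791, 10 were silent in HCT116, 3 in HT29, 3 in LS513 and 1 in LS174T. Among the 24 genes from ZNF565 to ZNF573, 15 were silent in HCT116, 13 in HT29, 7 in LS513 and 2 in LS174T. The group at the end of the long arm differed from these, as LS513 had 15 silent genes of 41 there, HT29 and HCT116 8 each and LS174T 7. The 23 genes from ZNF575 to ZNF180 were mostly detected, with 2 to 5 silent genes per line.

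**Figure D3:**
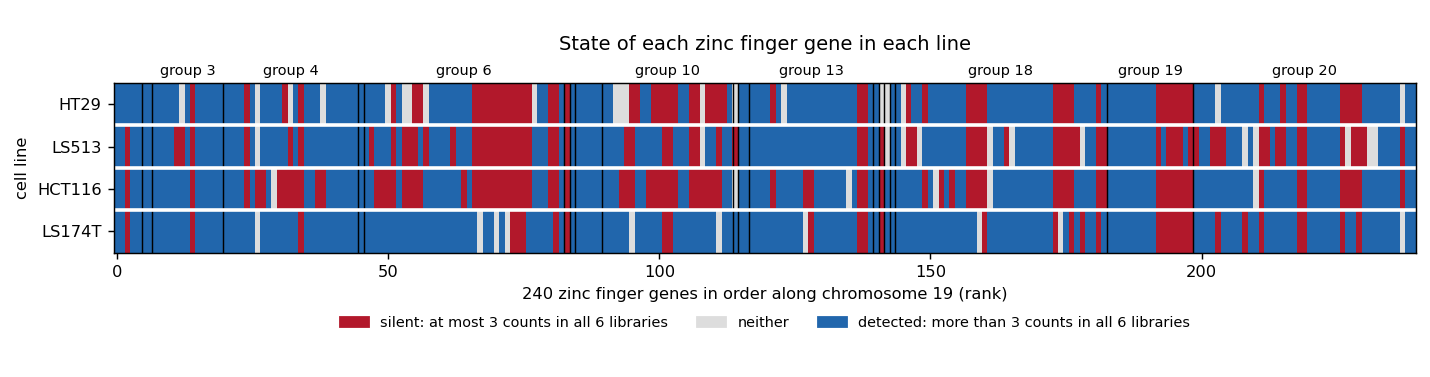
State of each of the 240 zinc finger genes (x axis, rank along chromosome 19) in each line (y axis): silent in red, detected in blue, neither in grey, with black lines between the 20 positional groups and the 8 groups of 10 or more genes numbered. The run of 11 silent genes in group 6 is red in HT29, LS513 and HCT116 and partly blue in LS174T, and the run of 7 in group 19 is red in all lines but LS513.

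Among the genes fixed for known roles, 9 are often reported as methylated in tumors. ZNF154, ZNF471, ZNF582, ZNF671 and ZNF677 were silent in all 4 lines, with at most 3 counts in any library. ZNF132 had at most 5 counts and ZNF382 at most 11, the latter in LS174T. ZNF331 was not silent everywhere. Its lowest, median and highest library had 267, 362.5 and 383 counts in HT29 and 131, 152 and 180 in LS174T, against at most 2 in LS513 and HCT116. ZNF177 had at most 1 count in LS513 and 9 in HT29, and at most 46 in HCT116 and 48 in LS174T.

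Of the 6 repressors of retroelements, ZNF91, ZNF93 and ZNF649 differed most between lines. ZNF91, which binds SVA elements, had a median of 1.38 CPM in HT29, 5.36 in HCT116, 19.3 in LS174T and 23.9 in LS513 (6 libraries each), and the ranges of LS174T and LS513 overlapped. ZNF93, which binds LINE-1 elements, had a median of 473.5 counts in LS174T, with 285 as the lowest and 538 as the highest library, and at most 28 in LS513, 6 in HT29 and 1 in HCT116. ZNF649 was silent in HT29 and LS513 and had medians of 157.5 counts in HCT116 and 349.5 in LS174T. ZNF417, ZNF587 and ZNF765 were detected in all 24 libraries. ZNF587 was highest in HT29 at 60.4 ± 12.1 CPM, with 1312 to 2099 counts there and 349 to 787 in HCT116. ZNF765 had 484 to 759 counts in HT29 and 234 to 416 in HCT116. ZNF417 stayed between 2.85 ± 0.439 CPM in HCT116 and 4.81 ± 1.70 CPM in LS513. ZNF473, which takes part in the processing of histone transcripts, stood at 59.8 ± 8.42 CPM in HT29 and between 20.4 and 28.1 CPM in the libraries of the other lines.

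For comparison between genes, CPM was divided by the length of the merged exons. ZNF146, which encodes a protein made almost wholly of zinc fingers, was the highest at 37.9 ± 15.0 CPM per kb over the 24 libraries, from 27.1 ± 4.40 in LS513 to 59.1 ± 13.5 in HT29. It was the highest zinc finger gene in 23 of the 24 libraries, and in LS174T 3D replicate 2 it stood at 19.1 CPM per kb, under ZNF581 (32.1 CPM per kb) and ZNF428. By the mean, ZNF581 followed at 17.7 ± 7.78 CPM per kb, ZNF524 at 12.8 ± 8.35, ZNF428 at 12.6 ± 4.99 and ZNF317 at 10.6 ± 2.75. The ranges of these 4 over the libraries overlapped, so their order is within the spread. The median of the 120 genes detected in all libraries was 1.96 CPM per kb, against 7.75 for the 11170 protein-coding genes detected in all libraries, and 7 zinc finger genes exceeded that value. Between the lines the median range of the 120 genes was 1.37 on the log2 scale, against 1.04 for the protein-coding genes, while the median of the largest difference between 3D and 2D was 0.476 against 0.481. These sets were not matched for level, which was lower for the zinc finger genes, and the part of level in these ranges was not tested.

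Each line was also compared with the mean of the other 3 with edgeR's quasi-likelihood test (adjusted p under 0.05), and these comparisons share their libraries. A gene that is silent in some lines passes the filter through the others and must differ, so the 141 genes called higher in LS174T (background 39.9%) and the 85 called lower in HCT116 (background 33.6%), of 204 tested, are not read further. The 120 genes with more than 3 counts in every library, a limit chosen after the data were seen, have this problem less. It is not removed, as some of them lay near the limit in 1 line and must differ too. ZNF28, for instance, had 4 to 12 counts in LS513 and 374 to 1025 in the other lines. Of the 120 genes, 66 were higher in LS174T (background 38.7%) and 23 lower (background 33.9%). In HCT116, 33 were higher (background 38.2%) and 59 lower (background 39.6%). For comparison, 93 of the 183 ZNF genes of other chromosomes that met the same limit were also higher in LS174T (50.8%) and 39 lower (21.3%), with a median log2 difference of 0.21. HT29 had 48 higher and 55 lower (backgrounds 36.1% and 39.3%), and LS513 49 and 50 (backgrounds 40.1% and 34.7%). Relative to the other lines, the median log2 difference of the 120 genes was 0.30 in LS174T, -0.16 in HCT116, -0.09 in HT29 and 0.00 in LS513, and over all genes with more than 3 counts in every library it was 0.04, -0.01, -0.02 and 0.03. Summed over the 240 genes, the level was 2031 to 2558 CPM in the LS174T libraries, 1942 to 2124 in HT29, 1538 to 1851 in HCT116 and 1485 to 1848 in LS513. The ranges of HT29 and LS174T overlapped, as did those of LS513 and HCT116, and the former pair lay above the latter.

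Whether growth in 3D changed the zinc finger genes was tested in each line with edgeR for the 204 genes that passed the filter on low counts. The other 36 were not tested. Calls are at an adjusted p under 0.05 over all 19387 tested genes, and fold changes are log2 of 3D over 2D. In HT29, 39 genes were higher in 3D (background 21.1%) and 17 were lower (background 19.6%). In LS513, 9 were higher (background 13.7%) and 34 lower (background 9.9%), in HCT116 7 were higher (background 16.8%) and 23 lower (background 12.3%), and in LS174T 17 were higher (background 13.1%) and 21 lower (background 9.15%). The median log2 fold change was 0.06 in HT29, -0.05 in HCT116, -0.14 in LS513 and -0.12 in LS174T, while over all tested genes it lay between 0.00 and 0.02. The ZNF genes on other chromosomes had medians of -0.07, -0.13, -0.21 and -0.20 in the same order, and the other protein-coding genes of chromosome 19 had medians of 0.22, 0.23, 0.15 and 0.21.

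The counts of genes called in 3D against 2D depended on single libraries. In LS174T, where 17 genes were higher and 21 lower, 5 were higher and 3 lower without 3D replicate 2, 10 and 4 without 2D replicate 2 as without 2D replicate 3, 15 and 7 without 3D replicate 1, and 9 and 12 without 2D replicate 1. With a replicate block it was 11 and 11, so that the balance of directions in LS174T is not settled. In HCT116, 30 were called, and 12 without 2D replicate 1, 13 without 2D replicate 2, 17 without 3D replicate 1 and 19 without 3D replicate 2. LS513 went from 43 to 28 without 2D replicate 1 or 2 and to 25 without 3D replicate 1 or 2. The share of all genes called fell in these fits as well, for instance in LS174T from 9.15% to 3.46% for genes lower in 3D when 3D replicate 2 was left out. HT29, with 56 calls, had between 40 and 50 with each library left out in turn.

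The libraries also differed in how long and short genes compared. The median log2 level of long genes minus that of short genes lay between 0.0494 and 0.155 in the 2D libraries, except for HCT116 2D replicate 3 (-0.0431), and between -0.287 and 0.0565 in the 3D libraries, with LS174T 3D replicate 2 as the lowest. The median exonic length was 4.92 kb for the 204 zinc finger genes and 3.97 kb for all tested genes. Zinc finger genes called lower had a median exonic length of 6.45 kb in HT29, 4.89 kb in HCT116, 4.81 kb in LS513 and 5.21 kb in LS174T, and those called higher of 3.91, 3.85, 3.85 and 3.22 kb. Over all genes called lower the medians were 6.05, 5.59, 5.46 and 6.79 kb in the same order, and over all called higher 3.37, 3.70, 3.76 and 3.07 kb. The part of gene length in these calls was not tested. Without both libraries named here, 50 genes were called in HCT116 and 10 in LS174T.

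**Figure D4:**
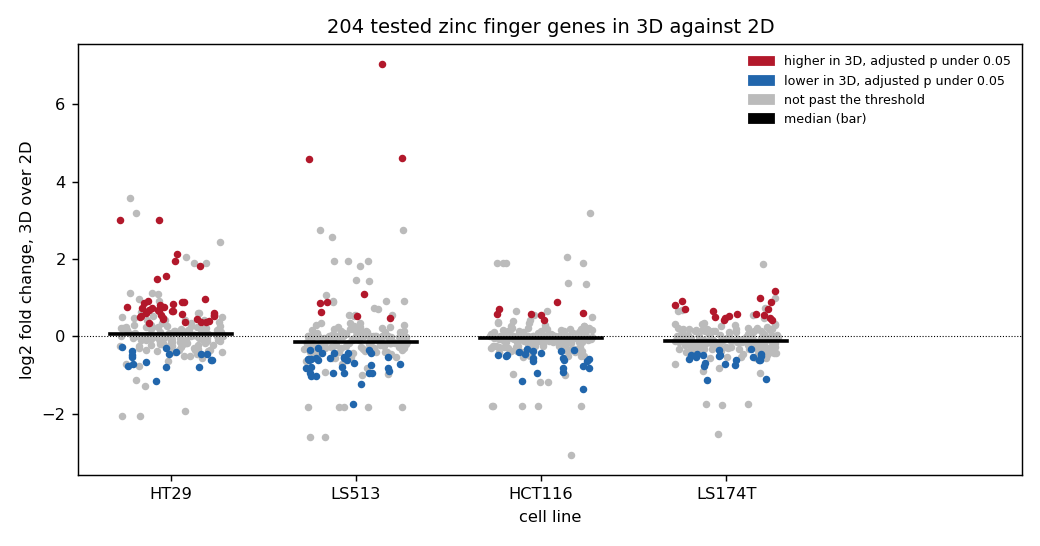
Log2 fold change of 3D over 2D (y axis) for the 204 tested zinc finger genes in each line (x axis), with genes past an adjusted p of 0.05 in red (higher in 3D) or blue (lower in 3D), the others in grey and the median as a black bar. HT29 shows 39 red and 17 blue points, LS513 9 and 34, HCT116 7 and 23, and LS174T 17 and 21, and the medians lie between -0.14 and 0.06.

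Averaged over the lines, 27 of the 204 genes were higher in 3D (background 26.6%) and 39 lower (background 23.9%). A gene at 0 counts throughout a line could not be called in this average, so these counts are not read against the backgrounds. ZNF738, at 0 counts in LS513, had an SE of 931 in the average, though it was called lower in HCT116 and LS174T. In single lines, 105 of the 204 genes (51.5%) were called in none, against 39.1% of all tested genes. This share includes genes that were silent in some lines and could hardly be called there. ZNF714, ZNF234 and ZNF8 were lower in 3D in all 4 lines (background 2.46%), and no zinc finger gene was higher in all 4 (background 3.14%). ZNF714 had 403, 377 and 292 counts in 2D of HT29 and 247, 250 and 254 in 3D, with 14.3 ± 1.56 and 8.44 ± 0.90 CPM. Its log2 fold change was -0.76 in HT29 (SE 0.22), -0.62 in LS513, -0.58 in HCT116 and -0.69 in LS174T, and the 2D and 3D libraries overlapped in none of the lines. For ZNF234 the values were -0.54, -0.93, -0.63 and -0.57 in the same order. ZNF8 had -0.39, -0.43, -0.44 and -0.45, and shares 20.7% of its exonic bases with other genes. Across 11 alternatives per line the calls of these 3 genes held in part: ZNF714 lost its call in 1 to 6 of them depending on the line, ZNF8 in 3 to 8, and ZNF234 in 7 or 8 in HT29, HCT116 and LS174T and in none in LS513.

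The 6 genes higher in 3D in 3 lines (background 5.25%) were ZNF358, ZNF575, ZNF160, ZNF524, ZNF784 and ZNF837. ZNF837 rose in HT29 from 15, 11 and 9 counts in 2D to 59, 64 and 56 in 3D, with a log2 fold change of 2.12 (SE 0.35, adjusted p = 5.1e-05, edgeR). All 3D libraries lay above all 2D libraries, which the rule that named this gene required. It rose by 0.88 in HCT116 (adjusted p = 0.035, lost in 5 of 11 alternatives) and by 1.18 in LS174T (adjusted p = 0.0051), and had 0.71 in LS513, where the call was missed. ZNF358 rose by 0.96 in HT29, 0.72 in HCT116 and 0.71 in LS174T and kept these calls under all 11 alternatives. In HT29, ZNF763 rose from 10, 7 and 4 to 37, 30 and 28 counts (log2 fold change 1.94, adjusted p = 6.5e-05, edgeR).

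The 10 genes lower in 3 lines (background 3.86%) were ZNF441, ZNF440, ZNF101, ZNF100, ZNF724, ZNF507, ZNF302, ZNF573, ZNF526 and ZNF616. ZNF616 fell by 0.92 on the log2 scale in HCT116 (SE 0.13, adjusted p = 1.2e-05, edgeR), with 513, 558 and 435 counts in 2D and 231, 256 and 238 in 3D. ZNF443 and ZNF225 fell by 1.02 each in LS513, from 346, 390 and 347 to 146, 149 and 182 counts for ZNF443 and from 183, 151 and 144 to 72, 64 and 75 for ZNF225. The groups did not overlap for these 3 genes, which the rule that named them required. ZNF724 fell by 1.35 in HCT116, 1.10 in LS174T and 0.93 in LS513, and ZNF573 by 1.24 in LS513, 1.14 in HCT116, where the libraries overlapped, and 1.12 in LS174T. Of 11 alternatives, ZNF724 lost its call in 5 in LS174T and 7 in LS513, and ZNF573 in 3 in LS513, 6 in HCT116 and 7 in LS174T.

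ZNF274 recruits SETDB1 to the 3′ ends of other zinc finger genes. In LS513 it had 1, 1 and 3 counts in the 2D libraries and 41, 45 and 32 in the 3D libraries, from 0.0525 ± 0.0369 to 1.38 ± 0.250 CPM. Every 3D library lay above every 2D library, with a log2 fold change of 4.62 (SE 0.37, adjusted p = 6.2e-09, edgeR), which stayed between 4.35 and 5.3 over 11 alternatives. The level in 3D still lay far under that of the other lines, which had 11.1 ± 0.514 CPM in 2D and 13.2 ± 3.15 in 3D in HT29, 10.01 ± 0.767 and 13.1 ± 0.280 in HCT116, and 10.4 ± 1.12 and 14.4 ± 2.02 in LS174T. There the log2 fold changes were 0.25 (adjusted p = 0.20), 0.39 (adjusted p = 0.058) and 0.47 (adjusted p = 0.030), and the last was past the threshold in the fit of all libraries but not in 5 of 11 alternatives. The growth effect in LS513 was larger than that in HT29 by 4.37 (SE 0.42), than that in HCT116 by 4.23 (SE 0.42) and than that in LS174T by 4.15 (SE 0.42), with an interaction adjusted p of 7.1e-07 (edgeR).

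In LS513, ZNF793 was also silent in 2D, at 0 counts in the 3 libraries, and had 25, 11 and 10 counts in 3D, at least 5.59-fold higher against a floor of 3 counts in a library (adjusted p = 1.6e-05, edgeR). These 2 genes were the zinc finger genes of LS513 that were silent in 2D and detected in 3D, a change found in 0.359% of the protein-coding genes. The remaining changes of state rested on few counts. In HT29, ZNF304 went from 0, 1 and 0 to 4, 4 and 4 counts (background 0.849%) and ZNF724 from 4, 7 and 6 to 0, 3 and 2 (background 0.0707%). In LS174T, ZNF439 went from 1, 3 and 0 to 5, 6 and 7 counts (background 0.374%), and in LS513 ZNF256 went from 5, 5 and 6 to 1, 2 and 1 (background 0.091%). HCT116 had no such gene in either direction (backgrounds 0.394% and 0.0404%), and LS174T none that was detected in 2D and silent in 3D (background 0.111%).

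**Figure D5:**
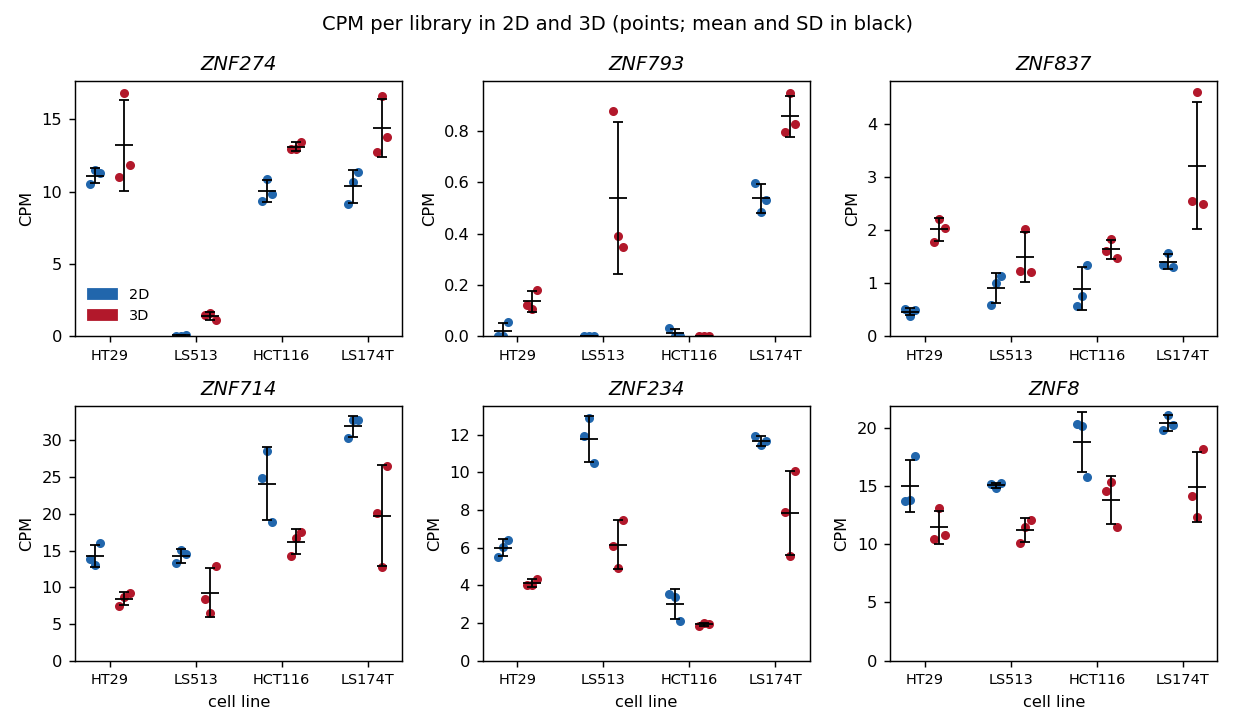
CPM per library (points, y axis) in 2D (blue) and 3D (red) of each line, with mean and SD in black, for 6 zinc finger genes. ZNF274 is near 0 in 2D of LS513 and reaches 1.38 CPM in 3D, under the 10.01 to 14.4 CPM of the other lines, and ZNF714 and ZNF234 are lower in 3D in each line.

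By the size of the change, the other genes named by rule were ZNF446 in HCT116 (higher by 0.61), ZNF575 and ZNF430 in LS513 (higher by 1.09 and 0.88), ZNF233 and ZNF350 in LS174T (higher by 1.00 and 0.91), ZNF841 and ZNF121 in HT29 (both lower, with a log2 fold change of -0.79), ZNF254 in HCT116 (-0.95) and ZNF738 in LS174T (-0.77). ZNF430 went from 14.5 to 26.7 CPM in LS513 and ZNF121 from 39.1 to 22.6 CPM in HT29. ZNF460 fell by 1.16 in HT29, but with 74, 74 and 169 counts in 2D and 59, 59 and 67 in 3D the size rested on 2D replicate 3, and without it the log2 fold change was -0.26. ZNF146, the gene with the highest level, went from 295 to 195 CPM in HT29 (log2 fold change -0.60) and from 170 to 120 CPM in HCT116 (-0.51).

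Among the 6 repressors of retroelements, none was called in HT29 and LS174T, ZNF417 was lower in LS513 (6.27 to 3.34 CPM, log2 fold change -0.91), and ZNF91 (7.04 to 4.11 CPM, -0.78) and ZNF649 (6.69 to 4.35 CPM, -0.62, lost in 4 of 11 alternatives) were lower in HCT116. Of all tested genes, 9.9% were lower in LS513 and 12.3% in HCT116. Of the 9 genes often methylated in tumors, ZNF331 and ZNF177 were tested and neither was called in any line. ZNF473 fell by 0.30 in HT29, from 66.0 to 53.6 CPM, a call that was lost in 6 of 11 alternatives.

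The growth effect differed between the lines for 23 of the 204 genes (interaction test, background 17.1%). Where a gene was at 0 counts throughout a line, such as ZNF20 in HCT116, that line gave no usable growth effect. ZNF230, ZNF227, ZNF180 and ZNF480 had calls in opposite directions. ZNF480 had 135, 133 and 84 counts in 2D and 223, 210 and 192 in 3D of HT29, a log2 fold change of 0.60, and in LS513 it had -0.35 (interaction adjusted p = 0.0011, edgeR). ZNF230 rose by 0.87 in HT29 and fell by 0.57 in LS513 (interaction adjusted p = 0.0026). In HT29 both groups were apart for both genes, with the 3D libraries higher in CPM.

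The partners of these proteins were looked at through a list of 26 corepressor genes, which were all tested. Of these, 17 were lower in 3D and 1 higher in HT29, 12 and 0 in LS513, 14 and 0 in HCT116, and 7 and 1 in LS174T. Over all tested genes, 19.6%, 9.9%, 12.3% and 9.15% were lower and 21.1%, 13.7%, 16.8% and 13.1% higher in the same order. The median log2 fold change of the list was -0.32 in HT29, -0.27 in HCT116, -0.24 in LS513 and -0.17 in LS174T. DNMT1, the maintenance DNA methyltransferase, fell by 0.78 in HT29, 0.65 in HCT116, 0.53 in LS513 and 0.46 in LS174T, and UHRF1, which brings DNMT1 to replicated DNA, fell by 0.53, 0.50, 0.57 and 0.58 in the same order. CHD4 was also lower in 3D in all 4 lines. Under this growth condition, the study reports lower expression of proliferation genes in every line. The part of proliferation in the calls of this list was not tested. HDAC1 was called higher in 2 lines and lower in none. CHD3, RBBP7, SUV39H1, MPHOSPH8 and PPHLN1 were called in no line. TRIM28 fell by 0.37 in HT29 and 0.47 in HCT116 and had log2 fold changes of 0.00 and 0.12 in LS513 and LS174T, and SETDB1 was called in no line, with values between -0.18 and 0.08. TRIM28 was high in every group, from 606 to 1468 CPM.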

How the data were processed

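RNA sequencing with poly(A) selection and a stranded TruSeq kit was done on 24 libraries of 4 cell lines in 2D and 3D. The deposited counts are raw numbers of reads per gene, made by the authors with HTSeq 0.5.3 after bcl2fastq 2.18.0.12, Trim Galore 0.4.1 and STAR. The study names an Ensembl genome and annotation without naming the build, and the submitters' processing notes name hg19. The settings of HTSeq for strand are not given in the sources used here. Reads aligned more than once were removed by the authors, which lowers the counts of similar genes.

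The 191 technical replicate files were summed by library (8 each, except that 1 of the 8 of HT29 3D replicate 4 was not analysed here). Chromosome and coordinates come from GENCODE 29 (GRCh38) by Ensembl identifier. Genes were filtered (filterByExpr, 19387 kept), scaled by TMM and tested in 1 model of the 8 groups with edgeR 4.0.16 (R 4.3.3, quasi-likelihood, robust) with Benjamini-Hochberg adjustment over all kept genes. DESeq2 1.42.0 was an alternative, as were other scalings, filters, a replicate block, limits for silence and leaving out libraries. An exact permutation test of 3 against 3 libraries cannot go below 0.1 and was not used. A floor of 3 counts was 0.0875 to 0.160 CPM before scaling and covers counting error only. The code was tested on simulated data.

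Members and lists were chosen with earlier results of these data known. Named were the genes silent in 1 line alone, in each line the 3 largest called increases and decreases with at least 1 CPM and no overlap of libraries, the 5 highest by CPM per kb, those called in 1 direction in all 4 lines, and fixed lists. The zinc finger genes of these lists are given in full above, while the corepressors are named in part and the cell type markers are not named. Genes named beyond this rule, such as ZNF43, ZNF304 and ZNF793, were chosen after their values were seen.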

Additional observations from a re-analysis of the deposited data

Results flagged for a closer look

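For 10 named zinc finger genes the growth effect differed between the 4 lines (edgeR interaction test, adjusted over all tested genes). The adjusted p was 7.1e-07 for ZNF274, 0.0018 for ZNF430, 0.00197 for ZNF20, 0.00206 for ZNF763, 0.00497 for ZNF443, 0.00672 for ZNF225, 0.0205 for ZNF69, 0.0212 for ZNF616, 0.0464 for ZNF563 and 0.0492 for ZNF233. ZNF20, with 46.5% of its 75-base windows in no other gene, and ZNF763, with 53.9%, can share reads with other genes. ZNF20 and ZNF563 were at 0 counts in every HCT116 library and ZNF69 at most at 1, so HCT116 gave no usable growth effect for these genes.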

How the results depend on the processing

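The number of zinc finger genes called in 3D against 2D changed with many settings. With each library left out in turn (range of calls) it was 8 to 53 in LS174T, 12 to 40 in HCT116, 25 to 51 in LS513 and 40 to 50 in HT29. With the study's cutoffs of -0.5 and 1.5 on the log2 fold change it was 15 in HT29, 14 in HCT116 and 12 in LS174T. It was 37 in HT29 without genes that share exonic bases and 10 in LS174T from its 6 libraries alone. Without LS174T 3D replicate 2 and HCT116 2D replicate 3, a choice made after seeing the data, it was 50 in HCT116 and 10 in LS174T. With a replicate block the number was 29 in HT29, 18 in HCT116 and 22 in LS174T, and 8 genes in place of 23 passed the interaction test. The deviations of libraries with the same number correlated between -0.126 and 0.0773, so the numbers were not taken to pair the samples.

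With 0 counts as the limit, 53 genes were silent in HCT116, 37 in HT29, 35 in LS513 and 13 in LS174T. With at least 10 counts asked of the other lines, 1 gene was silent in HT29 alone and 5 in HCT116, and with silence up to 10 counts 5 in HT29. With libraries left out, the silent genes were 63 to 65, 73 to 77, 84 and 33 to 34 (HT29, LS513, HCT116, LS174T). The median log2 fold change was -0.11 in LS513 with all genes of at least 1 count, and in HCT116 -0.036 with these and -0.045 with the size factors of DESeq2. With libraries left out it lay between 0.00 and 0.13 in HT29, -0.18 and -0.10 in LS513, -0.098 and -0.0084 in HCT116, and -0.21 and -0.06 in LS174T. Among genes with more than 3 counts in all libraries, 99 differed in LS513, 92 in HCT116 and 89 in LS174T, against 158, 146 and 167 of all tested. Of 79 calls of named genes, 34 held in every setting and none changed sign, while 37 of 153 fold changes of named genes that were not called changed sign in at least 1. Causes were not tested.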
